A study of Mus musculus with 9 samples.

Results

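Igf2, H19, Igf2r, Grb10, Igfbp3 and Igfbp7 are 6 genes of the insulin-like growth factor (IGF) axis, chosen by name from an expression table of ROC6, a murine oral squamous cancer cell line. Each had a single row, among 15446 uniquely named genes in 15620 rows. The study compared ROC6 cells carrying a CSMD3 knockout made with guide 1 (3 libraries), ROC6 cells carrying a CSMD3 knockout made with guide 2 (3 libraries) and WT Control ROC6 cells without the knockout (3 libraries), to ask what loss of this transmembrane protein does in oral squamous cells. All were grown in serum-supplemented medium, and each knockout is described as a clone, so an effect of the lost gene and a property of the clone cannot be told apart within 1 guide. Values are FPKM, fragment counts scaled to transcript length and to the library's total, which can be compared between genes because of the scaling to length. The genes were chosen with their values in the 3 group comparisons known, so those values are given here as a description, without a test.

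The IGF axis carries growth and survival signals. IGF-I and IGF-II bind the IGF-I receptor, a tyrosine kinase that acts through adaptor proteins on PI3K and AKT, while the IGF-II receptor takes IGF-II to the lysosome without a kinase signal. Secreted binding proteins hold the ligands outside the cell, and proteases release them. Igf2 is an imprinted gene expressed from the paternal allele, and H19, its neighbour on mouse chromosome 7, is a noncoding RNA expressed from the maternal allele. Igf2r and Grb10 are imprinted as well.

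Over the 3 groups, the ligand gene Igf2, the noncoding RNA H19, the receptor gene Igf2r and the adaptor gene Grb10 had lower values in both knockouts than in the control, and the binding protein genes Igfbp3 and Igfbp7 had higher ones. The 3 guide 1 libraries lay beyond the 3 control libraries for 6 of 6 genes, as they did for 71.9% of the 6965 genes tested (32.3% higher and 39.7% lower in guide 1). In guide 2 this held for 6 of 6 genes, against 68.6% of all genes (33.1% higher and 35.5% lower in guide 2). The 3 guide 2 libraries lay beyond the 3 guide 1 libraries for 5 of 6 genes, Igfbp3 being the exception, against 61.5% of all genes (34.8% higher and 26.6% lower in guide 2). Both knockouts were set against the same 3 controls. In 15441 of the 15446 genes the 2 knockout means lay on one side of the control mean, so a shared direction is a property of the rows analysed here. In bulk libraries, fewer cells that express a gene and less RNA per cell cannot be told apart.

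**Figure D1:**
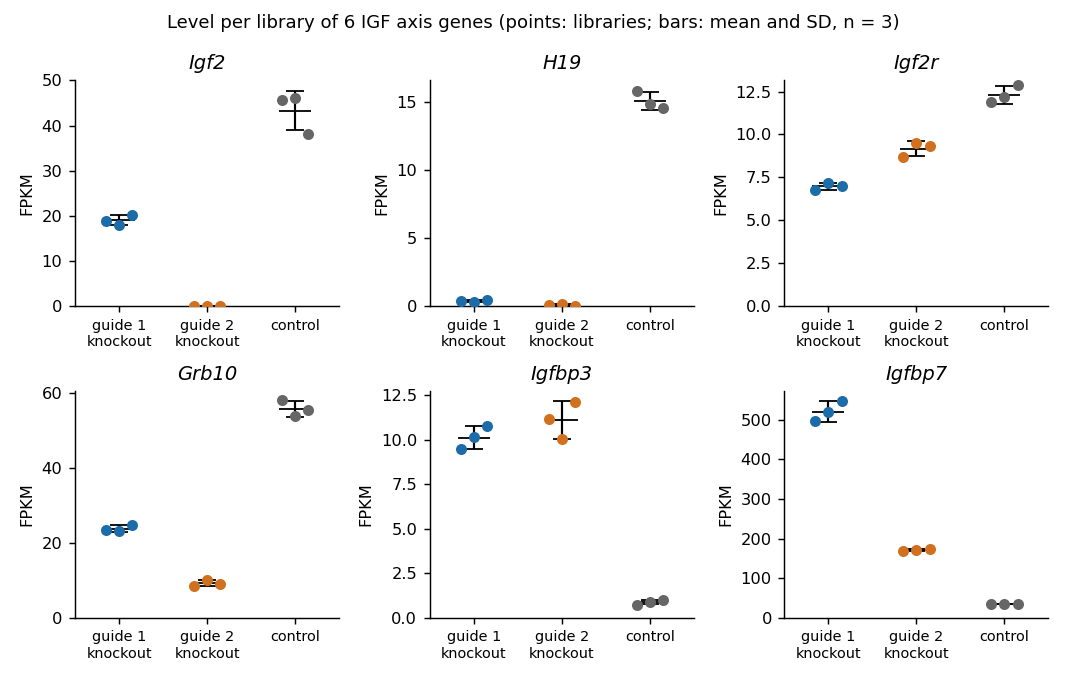
FPKM of the 6 genes in each library (points), with the mean and SD of 3 libraries (bars), in guide 1 knockout, guide 2 knockout and control cells. Igf2 and H19 are near 0 in guide 2, while the guide 1 libraries keep Igf2 between 18.02 and 20.2 FPKM, and Igfbp7 is highest in guide 1.

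Whether replicates were separate cultures is not stated, so errors and p-values measure the spread between libraries, which may be technical. Each library summed to 162625 to 168620 FPKM over uniquely named genes, a total that does not give its read depth, which is unknown. The targeted gene was not analysed here and gives no check of the labels. Of 16 squamous epithelial markers 8 had a row, with summed levels of 33.1 to 36.1 FPKM in guide 1, 12.5 to 14.9 FPKM in guide 2 and 7.24 to 7.74 FPKM in control libraries. The junction gene Jup and the integrin gene Itga6 gave much of it, with means of 20.9 and 9.49 FPKM in guide 1, 7.99 and 2.34 FPKM in guide 2 and 3.09 and 2.23 FPKM in the control, and Krt16 was listed at 0 in every control library. The listed members did not all go one way: Itgb4 averaged 0.309 FPKM in guide 1, 0.612 FPKM in guide 2 and 0.843 FPKM in the control, and Krt17 stood at 0, 0.104 and 0.0958 FPKM in guide 1, at 0, 0.0276 and 0 FPKM in guide 2 and at 0.249, 0.0851 and 0.0396 FPKM in the control. The rows for Krt5, Krt14, Trp63 and Cdh1 were not analysed here, so the cell type label rests on few markers. Of 10 fibroblast markers 2 had a row, with sums of 1.44 to 1.82 FPKM in guide 1, 7.89 to 9.08 FPKM in guide 2 and 0.840 to 1.60 FPKM in control libraries. The sums of 2 of 10 leukocyte markers were 1.196 to 1.54, 1.81 to 2.67 and 0.473 to 0.875 FPKM in guide 1, guide 2 and control, with Lyz2 at 0 in every control library. For 2 of 6 endothelial markers they were 0.665 to 0.714 FPKM in guide 1, 0.0454 to 0.115 FPKM in guide 2 and 0 to 0.0150 FPKM in the control, with Vwf at 0 in every control library. The part of these marker differences in the levels of the 6 genes was not tested.

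Igf2 encodes IGF-II, the fetal growth factor of the axis. It stood at 18.8, 18.02 and 20.2 FPKM in the guide 1 libraries, and at 45.7, 46.0 and 38.2 FPKM in the control libraries. In the guide 2 libraries it was at 0.0374, 0 and 0.0244 FPKM. The groups were fully apart: guide 1 kept 43.9% of the control mean, and guide 2 was at or next to 0. On the log2(FPKM + 1) scale, which understates differences that reach low values, the difference from control was -1.14 with guide 1 and -5.44 with guide 2 (SE 0.0749 each, from the model over 9 libraries), and guide 2 minus guide 1 was -4.29. By level, Igf2 ranked 1797 of 15446 genes in guide 1, 12045 in guide 2 and 730 in the control.

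H19, the maternally expressed noncoding RNA next to Igf2, had guide 1 values of 0.368, 0.302 and 0.481 FPKM. The guide 2 libraries had 0.126, 0.151 and 0.0345 FPKM and the control libraries 15.8, 14.8 and 14.54 FPKM. Every knockout library was thus far below every control library, and the guide 2 libraries lay below the guide 1 libraries. Guide 1 held 2.54% and guide 2 0.69% of the control mean, and the differences from control in log2(FPKM + 1) were -3.54 and -3.86 (SE 0.0772 each). The 2 genes of the locus did not keep the same proportion: H19 was 2.00 ± 0.353% of the Igf2 level in guide 1 libraries and 35.0 ± 2.92% in control libraries (SD, n = 3 each). In guide 2 this ratio was not formed, because Igf2 was at or next to 0 in all 3 libraries. H19 was the higher of the 2 genes in each guide 2 library. Guide 1 therefore combined a low H19 with a partly kept Igf2, and guide 2 had both near 0.

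Both genes also carry microRNAs, shown here because each shares its span with one of the 2 low transcripts. MicroRNAs pair with target RNAs through the seed, bases 2 to 8, printed in capitals. The RefSeq sequences lie on the minus strand of GRCm38.p6, miR-675 within H19 at chr7:142577112-142577133 (5p) and chr7:142577078-142577099 (3p), and miR-483 within Igf2 at chr7:142654968-142654989 (5p) and chr7:142654932-142654952 (3p).
mmu-miR-675-5p: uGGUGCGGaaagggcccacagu
mmu-miR-675-3p: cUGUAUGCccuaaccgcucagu
mmu-miR-483-5p: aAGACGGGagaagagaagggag
mmu-miR-483-3p: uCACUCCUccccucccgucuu
The 4 seeds differ from each other. Mature microRNAs are not measured by polyadenylated RNA libraries. A row for the gene Mir675, whose span lies inside H19, had 0.00484, 0.00698 and 0.0810 FPKM in guide 1, 0.00180, 0 and 0.00632 FPKM in guide 2, and 0.00568, 0.218 and 0.0767 FPKM in the control, and both knockouts overlapped the control.

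Igf1, the gene of the other IGF ligand, was at 0.277, 0.294 and 0.343 FPKM in guide 1, at 0.455, 0.570 and 0.550 FPKM in guide 2 and at 0.0747, 0.0419 and 0.0707 FPKM in the control. It lay below the mean of 1 FPKM over 9 libraries that a gene needed to be tested. Its 3 groups did not overlap, in the order guide 2, guide 1, control, the reverse of the order for Igf2. The summed level of both ligand genes was 19.3 ± 1.14 FPKM in guide 1, 0.546 ± 0.0462 FPKM in guide 2 and 43.4 ± 4.41 FPKM in the control (SD, n = 3 each). In guide 2 nearly all of that small sum was Igf1.

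Genes beside Igf2 on the chromosome were compared to see whether the low values extended to them. In order along the chromosome, by the GENCODE annotation of GRCm38, 40 protein-coding neighbours (20 on each side) were taken, of which 11 had a row and 9 were tested. With guide 1, 6 rose and 2 fell (limma adjusted p under 0.05), where 68.1% of all tested genes were called, 30.2% higher and 37.9% lower. With guide 2, 5 rose and 3 fell, where 65.4% of all genes were called, 31.9% higher and 33.5% lower. The median log2 difference of the 9 was 0.45 with guide 1 and 0.20 with guide 2, and over all tested genes it was -0.04 and -0.03.

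The nearest tested neighbours were Lsp1, which encodes an actin-binding protein of leukocytes, on the H19 side and Cd81, a tetraspanin gene, on the other side. Lsp1 rose to 6.28 FPKM with guide 1, against 2.75 FPKM in the control (log2 difference 0.96, SE 0.0641, limma adjusted p = 3.78e-07). In guide 2 Lsp1 stood at 3.31 FPKM (log2 difference 0.20, limma adjusted p = 0.0189), a call lost without guide 2 replicate 2 (adjusted p = 0.0665), without guide 2 replicate 3 (adjusted p = 0.0579) and without control replicate 3 (adjusted p = 0.0610), the lowest over the alternatives being 0.00969. Cd81 fell to 46.3 FPKM with guide 2, against 61.0 FPKM in the control (limma adjusted p = 5.71e-05), and had 58.1 FPKM in guide 1 (limma adjusted p = 0.244). Mrgpre, a receptor gene of the Mas-related family farther out, had the largest rise with guide 1 on the log2(FPKM + 1) scale (1.24), to 2.43 FPKM against 0.458 FPKM in the control. With guide 2 it rose to 1.16 FPKM (limma adjusted p = 0.00173). Tnfrsf26, a decoy receptor gene of the TNF family, rose to 2.02 FPKM with guide 1 and 1.24 FPKM with guide 2, against 0.349 FPKM in the control, and by fold of the means its guide 1 rise was larger (5.79, against 5.32 for Mrgpre). Its relative Tnfrsf23 had 13.01 FPKM in guide 1 and 7.39 FPKM in guide 2, against 6.52 FPKM in the control (limma adjusted p = 1.658e-05 and 0.171). Cdkn1c, an imprinted CDK inhibitor gene of the adjoining domain, was too low to be tested, at 0.0863, 0 and 0.0872 FPKM in guide 1, 0.256, 0.211 and 0.0998 FPKM in guide 2 and 0.806, 0.593 and 0.291 FPKM in the control. The largest fall among tested neighbours was 0.94 on the log2 scale, in Ifitm10 with guide 1.

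**Figure D2:**
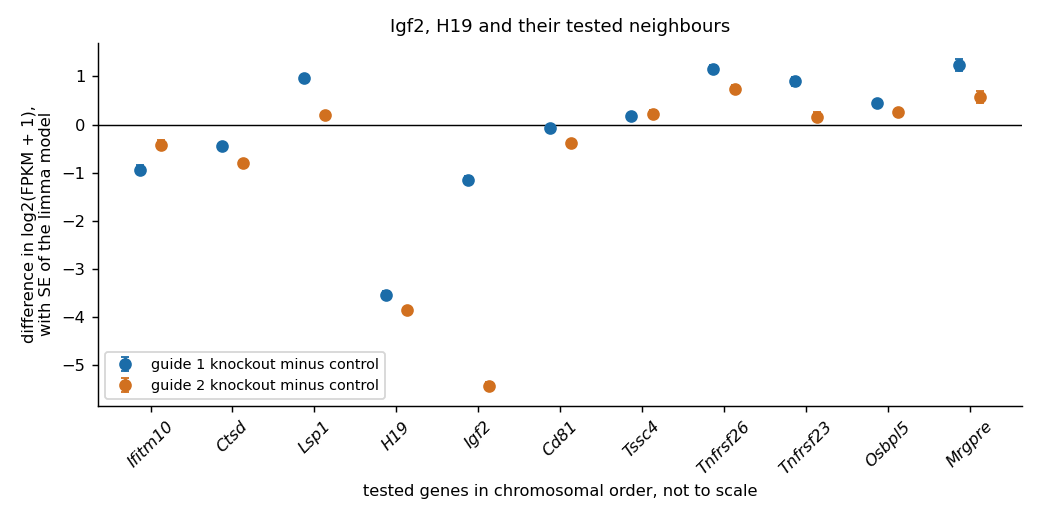
Difference of each knockout from the control in log2(FPKM + 1), with the SE of the limma model, for H19, Igf2 and the 9 tested protein-coding neighbours in chromosomal order (spacing not to scale). H19 and Igf2 lie between -1.14 and -5.44, and the neighbours between -0.94 and 1.24.

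Among 70 other imprinted genes listed, 28 had a row and 15 were tested. With guide 1, 7 rose and 6 fell, so 86.7% were called, against 68.1% of all genes. With guide 2, 7 rose and 5 fell, so 80.0% were called, against 65.4% of all genes. The median log2 difference was -0.04 with guide 1 and -0.08 with guide 2, and over all genes -0.04 and -0.03. Qpct, which encodes glutaminyl cyclase, rose to 41.8 FPKM with guide 1 and 22.9 FPKM with guide 2, against 12.2 FPKM in the control (limma adjusted p = 9.25e-10 and 1.55e-07). H13, the gene of signal peptide peptidase, fell to 18.04 FPKM with guide 1 and 10.7 FPKM with guide 2, against 23.9 FPKM in the control. Sfmbt2, a Polycomb group gene, fell with both guides, to 0.289 FPKM and 1.00 FPKM, against 2.34 FPKM in the control. Peg12, a paternally expressed gene, fell with guide 1 to 0.631 FPKM, against 3.63 FPKM in the control, and had 3.35 FPKM in guide 2, a difference of 1.42 log2 units between guide 2 and guide 1 (limma adjusted p = 2.2e-07). Guide 2 and guide 1 differed in 6 of the 15, with 2 higher and 4 lower in guide 2, where 54.5% of all genes were called, 31.2% higher and 23.3% lower. Other imprinted genes with a row were too low to be tested. In guide 1, guide 2 and control, Phactr2 averaged 0.0142, 0.0800 and 1.00 FPKM and Dio3 0.1985, 0.0168 and 1.835 FPKM. Slc38a4 went the other way, at 0.278, 0.120 and 0.0155 FPKM, as did Cobl, at 0.138, 0.0356 and 0.00705 FPKM.

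Igf2r encodes the receptor that binds IGF-II and carries lysosomal enzymes bearing mannose 6-phosphate. Guide 1 libraries had 6.76, 7.17 and 7.01 FPKM, guide 2 libraries 8.69, 9.51 and 9.32 FPKM, and control libraries 11.9, 12.2 and 12.9 FPKM. The 3 groups did not overlap, and the lowest was guide 1, at 56.7% of the control mean, with guide 2 at 74.5%. The log2 differences from control were -0.74 and -0.39 (SE 0.0530 each). Airn, the noncoding RNA on the opposite strand of Igf2r, was at 0.307, 0.658 and 0.477 FPKM in guide 1, at 0.175, 0.275 and 0.139 FPKM in guide 2 and at 0.0656, 0.194 and 0.192 FPKM in the control. The guide 1 values of Airn lay above the others, and those of guide 2 and control overlapped. The libraries were stranded, per the labels, but the sources used here do not say whether counting used strand, so reads of these 2 genes may not be fully separated.

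Igf1r, the gene of the signalling receptor, fell with both guides. It stood at 8.37, 9.30 and 9.35 FPKM in guide 1 and 6.43, 6.92 and 7.04 FPKM in guide 2, against 11.9, 11.9 and 10.97 FPKM in the control. These are log2 differences of -0.33 (limma adjusted p = 0.000605) and -0.69 (limma adjusted p = 3.34e-06). For the 2 receptor genes the order of the guides was opposite: Igf2r was lowest in guide 1 and Igf1r in guide 2, and the ratio of Igf2r to Igf1r was 0.776 ± 0.0289 in guide 1, 1.35 ± 0.0266 in guide 2 and 1.06 ± 0.0960 in the control (SD, n = 3 each). M6pr, the gene of the smaller mannose 6-phosphate receptor, rose with guide 2 to 53.7 FPKM, against 39.3 FPKM in the control (log2 difference 0.44, limma adjusted p = 7.29e-06). In guide 1 M6pr had 42.4 FPKM, with a limma adjusted p of 0.0491 that ranged from 0.00269 to 0.169 over the alternatives and was above 0.05 when any 1 library other than guide 1 replicate 2 was left out. The call was also lost with the replicate block (0.0520), a filter of 5 FPKM (0.0519), a constant prior variance (0.0755) and only the 6 libraries compared (0.0804).

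Igfbp7 encodes a secreted protein of vessel walls and stroma that binds IGFs weakly. Its level was 497, 520.1 and 547 FPKM in guide 1, 168, 171 and 173 FPKM in guide 2 and 34.9, 34.4 and 34.4 FPKM in the control. No group overlapped another, in the order guide 1, guide 2, control. Guide 1 was 15.1 times and guide 2 4.93 times the control mean, with log2 differences of 3.88 and 2.27 (SE 0.0429 each). Igfbp7 ranked 24 of 15446 genes by level in guide 1, 137 in guide 2 and 977 in the control.

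Igfbp3 encodes the main carrier of IGFs in blood. Guide 1 libraries had 9.46, 10.1 and 10.7 FPKM and guide 2 libraries 11.2, 10.0 and 12.1 FPKM, against 0.738, 0.889 and 0.970 FPKM in the control. All knockout libraries lay far above the controls, and the guides overlapped each other, with a difference between guide 2 and guide 1 of 0.12 on the log2 scale (SE 0.0788). The log2 differences from control were 2.57 with guide 1 and 2.70 with guide 2, and the means were 11.7 and 12.8 times that of the control.

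Promoters of both binding protein genes, whose values were higher in both knockouts, are shown with the one of the 4 Igf2 starts that lies farthest downstream, as the gene with the lowest guide 2 value. They are RefSeq sequences of GRCm38.p6, windows that span an annotated start, all on the minus strand, at chr11:7213874-7214173 for Igfbp3, chr5:77407996-77408295 for Igfbp7 and chr7:142657447-142657746 for Igf2. Capitals mark GGGCGG, the GC box, or its complement CCGCCC. Neighbouring matches may share bases.
Igfbp3: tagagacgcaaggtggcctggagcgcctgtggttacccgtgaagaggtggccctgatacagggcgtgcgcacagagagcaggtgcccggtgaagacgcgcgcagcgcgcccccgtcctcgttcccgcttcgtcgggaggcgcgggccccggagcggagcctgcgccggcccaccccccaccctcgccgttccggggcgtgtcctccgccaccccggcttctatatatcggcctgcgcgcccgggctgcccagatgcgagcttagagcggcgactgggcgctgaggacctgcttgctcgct
Igfbp7: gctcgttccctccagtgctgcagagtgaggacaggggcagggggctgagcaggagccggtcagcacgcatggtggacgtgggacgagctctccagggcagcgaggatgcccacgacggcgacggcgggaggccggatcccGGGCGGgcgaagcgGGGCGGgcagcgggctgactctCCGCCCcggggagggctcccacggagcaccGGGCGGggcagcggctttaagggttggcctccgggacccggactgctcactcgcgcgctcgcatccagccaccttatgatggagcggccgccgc
Igf2: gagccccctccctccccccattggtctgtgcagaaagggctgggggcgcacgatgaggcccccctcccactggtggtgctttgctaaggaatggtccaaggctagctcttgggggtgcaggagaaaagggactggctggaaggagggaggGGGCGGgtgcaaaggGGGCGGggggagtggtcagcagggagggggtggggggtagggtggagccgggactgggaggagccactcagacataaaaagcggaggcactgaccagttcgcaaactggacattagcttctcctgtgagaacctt
The GC box was found 0 times in the Igfbp3 window, 4 times in that of Igfbp7 and 2 times in that of Igf2, and 35.7% of 32851 promoters of this length hold it. TATAAA, found in 13.6% of promoters, and TGANTCA, the AP-1 motif, found in 7.81%, were searched on both strands and matched none of the 9 windows of the 5 genes with an entry (Igf2, Igf2r, Grb10, Igfbp3 and Igfbp7). CG pairs numbered 37 in Igfbp3, 33 in Igfbp7, 34 in Igf2r, 45 and 9 in the 2 Grb10 windows and 2 to 24 in the 4 Igf2 windows, against a median of 7 in all promoters. Which Igf2 start was used cannot be read from a value per gene.

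Igfbp4 and Igfbp6, the other tested binding protein genes, rose with both guides. Igfbp6 passed the testing limit of a mean of 1 FPKM only through its guide 2 values, so its adjusted p adds no further support. Igfbp4, which encodes an inhibitory binding protein, had 275, 282 and 285 FPKM in guide 1 and 331, 345 and 331 FPKM in guide 2, against 158, 150.3 and 124 FPKM in the control. Its log2 differences were 0.96 (limma adjusted p = 1.36e-06) and 1.22 (limma adjusted p = 2.87e-07). Igfbp6, whose protein prefers IGF-II, had 0.806 ± 0.229 FPKM in guide 1 and 2.48 ± 0.328 FPKM in guide 2 (SD, n = 3 each), against 0.267, 0.224 and 0 FPKM in the control libraries (limma adjusted p = 0.00127 and 1.95e-06). Igfals, the gene of the acid-labile subunit that binds the circulating complex, was listed at 0 in all 3 guide 1 libraries, at 0.0434, 0.0298 and 0 FPKM in guide 2 and at 0.0254, 0.134 and 0 FPKM in the control.

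The summed level of Igfbp3, Igfbp4, Igfbp6 and Igfbp7 was 813 ± 31.6 FPKM in guide 1, 520.0 ± 8.30 FPKM in guide 2 and 179.7 ± 18.1 FPKM in the control (SD, n = 3 each). Igfbp7 made up 64.1% of this sum in guide 1, 32.8% in guide 2 and 19.4% in the control, and Igfbp4 34.5%, 64.6% and 80.1%. The leading binding protein transcript was thus Igfbp7 in guide 1 and Igfbp4 in guide 2 and the control.

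**Figure D3:**
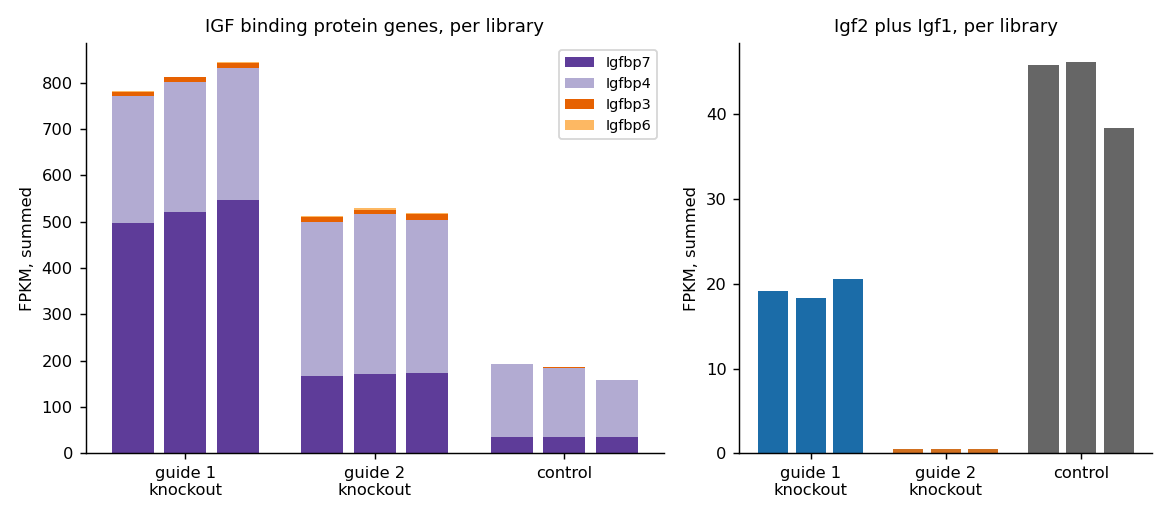
Stacked FPKM of 4 IGF binding protein genes (left) and summed FPKM of Igf2 and Igf1 (right) in each library of guide 1 knockout, guide 2 knockout and control cells. The summed transcripts of these 4 genes are highest in guide 1 and lowest in the control. Those of the 2 ligand genes are highest in the control and lowest in guide 2.

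Of 10 listed proteases and inhibitors 8 had a row and 5 were tested. With guide 1, 0 rose and 4 fell, and Stc2 did not pass, where 37.9% of all genes fell. With guide 2, 1 rose and 4 fell, where 33.5% of all genes fell and 31.9% rose. Htra1, a serine protease gene, fell to 7.80, 8.35 and 9.10 FPKM with guide 1 and to 19.6, 20.7 and 20.5 FPKM with guide 2, against 33.2, 32.3 and 29.4 FPKM in the control (limma adjusted p = 3.5e-09 and 1.17e-05). Adamts1, a metalloprotease gene of the matrix, fell to 6.81 FPKM with guide 1 and 7.81 FPKM with guide 2, against 27.0 FPKM in the control. Adam12 and Ctsd, which encode a membrane metalloprotease and the lysosomal protease cathepsin D, fell with both guides as well. Stc2, the gene of stanniocalcin 2, an inhibitor of the binding protein protease PAPP-A, rose with guide 2 to 5.08, 3.93 and 4.14 FPKM, against 0.555, 0.560 and 0.682 FPKM in the control (log2 difference 1.75, SE 0.0903, limma adjusted p = 7.2e-08). It had 0.789, 0.727 and 0.840 FPKM in guide 1 (limma adjusted p = 0.141). Stc1, the gene of the related stanniocalcin 1, had means of 0.697 FPKM in guide 1, 0.560 FPKM in guide 2 and 0.250 FPKM in the control and was not tested. Klk10, a kallikrein gene that was not tested either, had 0.218, 0 and 0 FPKM in guide 1 and 0.580, 0.0708 and 0.335 FPKM in guide 2. It was listed at 0 in all 3 control libraries. Pappa itself stood at 0.0278, 0.0345 and 0.0129 FPKM by mean in guide 1, guide 2 and control, too low to be tested.

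Grb10 encodes an adaptor that binds the insulin and IGF-I receptors and dampens their signal. It stood at 23.3, 23.1 and 24.7 FPKM in guide 1, at 8.43, 10.0 and 9.01 FPKM in guide 2 and at 57.9, 53.7 and 55.3 FPKM in the control. The groups did not overlap, and the order from high to low was control, guide 1, guide 2, as for Igf2. Guide 1 held 42.6% and guide 2 16.5% of the control mean, with log2 differences of -1.20 and -2.48 (SE 0.0620 each) and -1.28 between guide 2 and guide 1.

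Grb14, the gene of the closest relative of GRB10, fell too, in the other order of guides. Its levels were 0.623, 0.607 and 0.560 FPKM in guide 1 and 2.32, 2.72 and 2.14 FPKM in guide 2, against 8.16, 8.39 and 6.52 FPKM in the control (log2 differences -2.44 and -1.35, limma adjusted p = 7.31e-09 and 7.25e-07). Guide 2 minus guide 1 was 1.08 for Grb14 (limma adjusted p = 6.15e-06). Of 17 adaptors and receptor-proximal signalling genes other than Grb10, 9 had a row and all 9 were tested: 0 rose and 6 fell with guide 1, and 2 rose and 5 fell with guide 2. The shares called were 66.7% and 77.8%, against 68.1% and 65.4% of all genes. Ptpn11, the gene of the phosphatase SHP2, fell to 27.0 FPKM with guide 1 and 29.1 FPKM with guide 2, against 50.1 FPKM in the control, and Ptpn1, the gene of a phosphatase of the insulin receptor, to 15.9 and 16.2 FPKM, against 21.9 FPKM. Shc1, an adaptor gene of the RAS branch, rose with guide 2 to 31.1 FPKM, against 21.5 FPKM in the control, and Nedd4, which encodes a ubiquitin ligase that works with GRB10, to 108 FPKM, against 86.7 FPKM. Socs2, a cytokine signalling inhibitor gene, fell to 1.11 FPKM with guide 1 and 0.946 FPKM with guide 2, against 1.73 FPKM in the control, and Sh2b2, an adaptor gene, had 3.59, 3.04 and 3.90 FPKM in guide 1, guide 2 and control (limma adjusted p = 0.503 and 0.0503). With guide 1 the adjusted p was 0.213 for Shc1 and 0.702 for Nedd4 (limma). The guide 1 falls of Gigyf1 and Gigyf2, genes of GRB10-interacting proteins, were -0.25 and -0.18 on the log2 scale (limma adjusted p = 0.0279 and 0.0246). The Gigyf1 call was lost without guide 1 replicate 1 or 2, without control replicate 2 or 3, without a filter and under trimmed mean rescaling (adjusted p up to 0.105, lowest over the alternatives 0.00521). The Gigyf2 call was lost without guide 1 replicate 1 or 2, without control replicate 1 and under both rescalings (adjusted p up to 0.0859, lowest 0.0167).

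**Figure D4:**
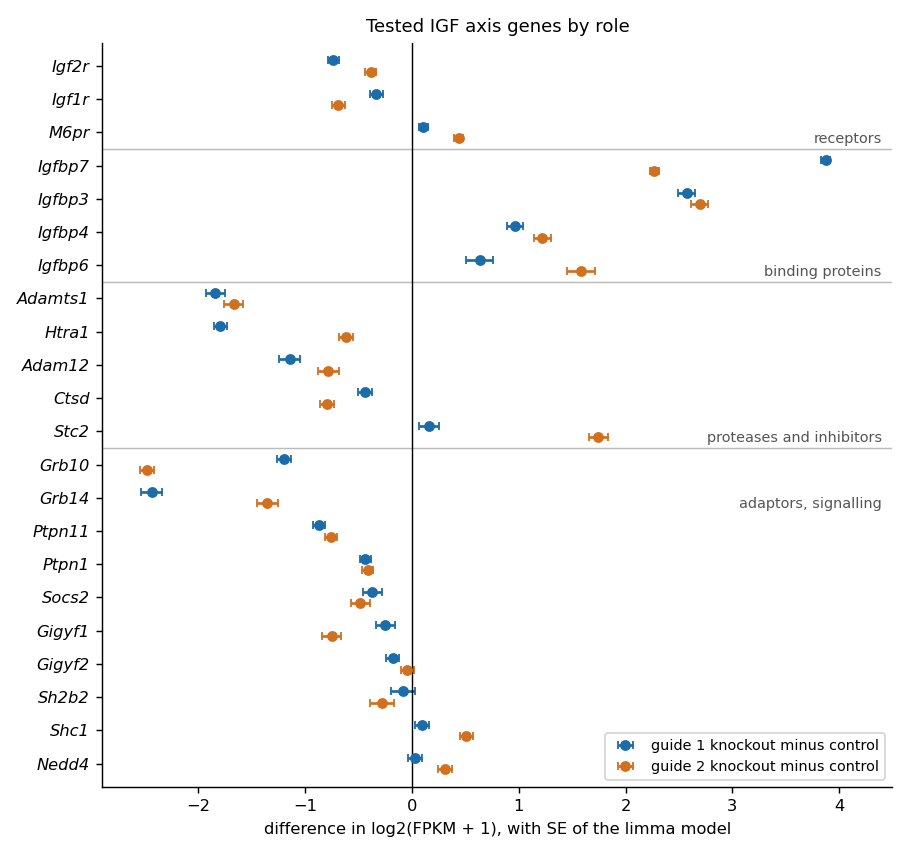
Difference of each knockout from the control in log2(FPKM + 1), with the SE of the limma model, for the tested receptor, binding protein, protease and adaptor genes. The 4 binding protein genes lie right of 0, from 0.63 to 3.88, and Adamts1, Htra1, Grb10 and Grb14 lie left of 0 with both guides.

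Farther down the pathway, of 31 PI3K, AKT, TSC, mTOR and FOXO genes 15 had a row and were tested. With guide 1, 4 rose and 6 fell (66.7% called, against 68.1% of all genes), and with guide 2, 4 rose and 5 fell (60.0% called, against 65.4% of all genes). The median log2 differences were -0.06 and -0.09, and over all genes -0.04 and -0.03. Foxo6, a gene of the FOXO transcription factors, had the largest log2 difference of the list with guide 1, at 1.63, 1.43 and 2.35 FPKM in guide 1, against 0.384, 0.424 and 0.685 FPKM in the control (log2 difference 0.90, limma adjusted p = 1.005e-04). In guide 2 Foxo6 had 1.08, 1.12 and 0.958 FPKM (log2 difference 0.46, limma adjusted p = 0.00843), with an adjusted p of 0.00276 to 0.0598 over the alternatives and the call lost under quantile normalization. Rheb, the GTPase gene that switches on mTORC1, fell to 14.2 FPKM with guide 1 and 20.04 FPKM with guide 2, against 23.7 FPKM in the control. Deptor, an inhibitor gene of mTOR, fell to 3.36 FPKM with guide 1 and 1.94 FPKM with guide 2, against 4.68 FPKM in the control (limma adjusted p = 0.00121 and 1.91e-06). Pik3cb, a catalytic subunit gene of PI3K, rose to 4.84 FPKM with guide 1 and 7.11 FPKM with guide 2, against 3.81 FPKM in the control (limma adjusted p = 0.00148 and 1.38e-06). Rps6kb2, an S6 kinase gene, fell with guide 2 to 3.10 FPKM, against 4.63 FPKM in the control, and had 4.02 FPKM in guide 1 (limma adjusted p = 0.0890). Rictor, a subunit gene of mTORC2, rose to 2.28 FPKM with guide 1 and 1.59 FPKM with guide 2, against 1.09 FPKM in the control (limma adjusted p = 4.8e-05 and 0.00686).

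Taking the 6 IGF axis lists without the 6 genes, 72 genes were listed, 38 had a row and 33 were tested. With guide 1, 7 rose and 17 fell, so 72.7% were called, against 68.1% of all genes. After trimmed mean rescaling the guide 1 split was 9 rising and 13 falling. With guide 2, 10 rose and 15 fell, so 75.8% were called, against 65.4% of all genes. Guide 2 exceeded guide 1 in 12 and lay below it in 8, so 60.6% were called, against 54.5% of all genes. The median log2 difference of the 33 was -0.17 with guide 1 and -0.15 with guide 2, and over all genes -0.04 and -0.03. Over all genes 30.2% rose and 37.9% fell with guide 1, and 31.9% rose and 33.5% fell with guide 2. The shares called in any direction lie near the background of this table. In the main fit the splits from control leaned further toward falls than those of all genes, which was not tested.

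**Figure D5:**
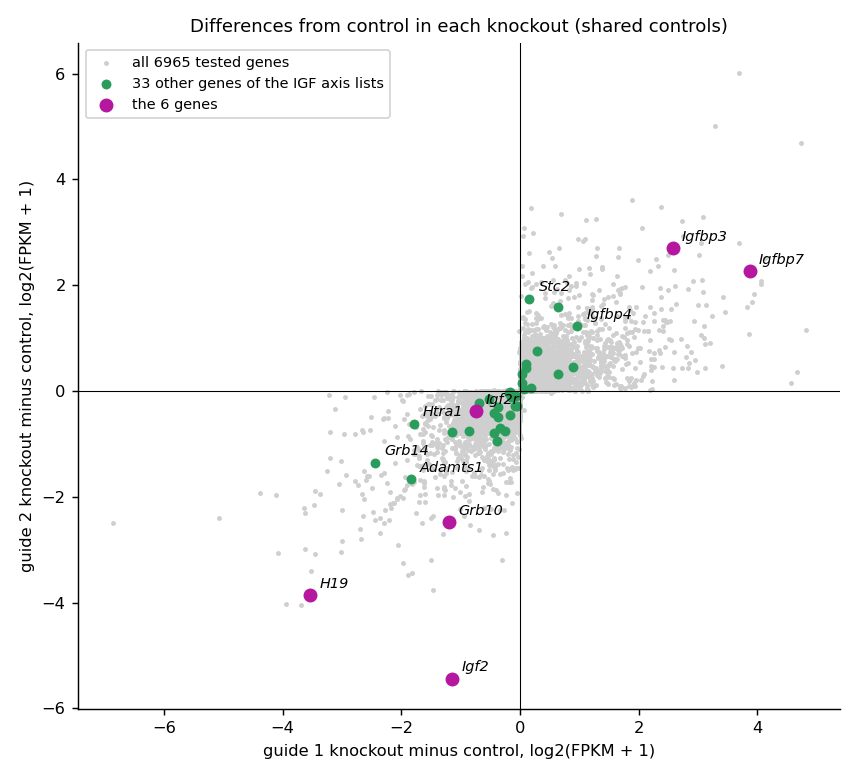
Difference from the control in log2(FPKM + 1) with guide 1 (horizontal) and guide 2 (vertical), for the 6 genes, 33 other IGF axis genes and all 6965 tested genes. The control libraries are shared by both axes. Igf2 lies at -1.14 and -5.44, and Igfbp7 at 3.88 and 2.27.

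Of 16 listed regulators of Igf2 and H19 RNA 8 had a row and 5 were tested. With each guide 5 rose, where 30.2% of all genes rose with guide 1 and 31.9% with guide 2. Hmga2, a chromatin protein gene of fetal growth, rose to 27.2, 24.4 and 28.0 FPKM with guide 1 and to 6.97, 7.14 and 7.99 FPKM with guide 2, against 2.62, 3.04 and 4.09 FPKM in the control (log2 differences 2.71 and 0.99, limma adjusted p = 1.09e-08 and 2.5e-05). Hmga1 rose to 339 FPKM and 196 FPKM, against 107 FPKM in the control. Drosha, the gene of the nuclease that starts microRNA processing, rose to 13.4 FPKM with guide 1 and 18.8 FPKM with guide 2, against 9.96 FPKM in the control. Igf2bp1, which encodes an Igf2 mRNA-binding protein, was below the testing limit, with 0.931, 0.809 and 1.08 FPKM in guide 1, 0.108, 0.129 and 0.0930 FPKM in guide 2 and 0.0465, 0.0725 and 0.0575 FPKM in the control.

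Of 16 genes of imprint maintenance and DNA methylation 6 had a row and 4 were tested, and 3 rose with each guide (75% called, against 68.1% of all genes with guide 1 and 65.4% with guide 2). Zfp57, a zinc finger gene that keeps methylation at imprinting control regions, rose to 13.8, 16.6 and 14.1 FPKM with guide 1 and to 8.13, 9.92 and 8.48 FPKM with guide 2, against 6.30, 6.23 and 6.604 FPKM in the control (log2 differences 1.10 and 0.41, limma adjusted p = 8.98e-07 and 0.00131). Uhrf1, the partner gene of DNMT1 at replicated DNA, rose to 80.5 FPKM and 73.2 FPKM, against 53.5 FPKM in the control, and Trim28, the corepressor gene that ZFP57 recruits, to 127 FPKM and 119 FPKM, against 103 FPKM. Dnmt3a, a DNA methyltransferase gene below the testing limit, went the other way. It averaged 0.914 FPKM in guide 1 and 0.757 FPKM in guide 2, against 1.17 FPKM in the control. DNA methylation and allelic origin were not measured.

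Genes with a pattern most like each of the 6 were sought by Pearson's r of log2(FPKM + 1) over 9 libraries, among genes whose group means span 1 log2 unit or more (952 or 953 candidates). The libraries form 3 tight groups, so r mostly compares 3 group levels and carries no p-value. For Igf2 they were Map1lc3a, Scara3 and Tgtp1 (r 0.998 to 0.999). Map1lc3a, an autophagy gene, had means of 44.3 FPKM in guide 1, 14.4 FPKM in guide 2 and 57.5 FPKM in the control, a smaller difference than that of Igf2. For H19 they were Cxcl12, Icam1 and Pcsk6 (r 0.998 to 0.999), and Icam1, an adhesion molecule gene, stood at 0.199 FPKM in guide 1, 0.0422 FPKM in guide 2 and 4.89 FPKM in the control. The genes nearest to Igf2r were Plod3, Slc1a3 and Lrig3 (r 0.989 to 0.992), and those nearest to Grb10 were Bhlhb9, Slc20a1 and Heg1 (r 0.997 to 0.998). Igfbp3 was followed most closely by Nr4a1, Bok and Pdlim5 (r 0.996 to 0.998). Nr4a1, an immediate early nuclear receptor gene, had 18.3, 19.3 and 5.34 FPKM in guide 1, guide 2 and control. Igfbp7 was followed by Olfml2b, Gask1b and Map1b (r 0.999 to 0.9995), with Olfml2b, an extracellular matrix gene, at 135 FPKM in guide 1, 43.2 FPKM in guide 2 and 6.79 FPKM in the control.

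Within each group the order of the 6 levels differed. In guide 1 Igfbp7 led at 521 FPKM, followed by Grb10, Igf2, Igfbp3, Igf2r and H19. In guide 2 the order was Igfbp7, Igfbp3, Igf2r, Grb10, H19 and Igf2, where Igf2r and Grb10 (9.17 ± 0.426 and 9.15 ± 0.803 FPKM, SD, n = 3 each) did not differ beyond their spread. In the control Grb10 led at 55.6 FPKM, followed by Igf2, Igfbp7, H19, Igf2r and Igfbp3. In the GENCODE annotation of GRCm38, Igf2 shares its span with Gm49394 on the same strand and Igf2os on the opposite strand, and Igfbp7 with Polr2b on the opposite strand. How reads of these pairs were divided is not given in the sources used here.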

How the data were processed

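Poly(A) RNA was read in pairs from strand-marked libraries, per the labels' protocols. The authors deposited 1 FPKM value per gene and library (per the file headers). Tools named are cutadapt, FastQC, HISAT2 and StringTie, per the submitters' processing notes. Their versions, the genome build, the annotation and the rule for choosing rows were not given in the sources used here. The deposited data are titled common DEGs (differentially expressed genes) of knockout against control. Shares of all genes cover only the deposited rows, and a missing row does not show absent expression. Groups came from the samples' labels, and 0 further value columns were present. Left out were 174 rows sharing 62 symbols and, from testing, 8481 genes with a mean under 1 FPKM. Igfbp6, Stc2, Foxo6, Mrgpre, Tnfrsf26 and Sfmbt2 passed this limit only through the group where each was highest. Their calls are therefore not independent of the filter. log2(FPKM + 1) of the remaining 6965 genes in 9 libraries was modelled by limma 3.58.1 (R 4.3.3) with a prior variance trending with the mean. Calls use Benjamini-Hochberg adjusted p under 0.05 over all tested genes. The fit was also run on simulated independent values with a small set of genes changed in a single group. That setting differs from these data, where most genes were called, so the run does not test the calibration of the calls. FPKM holds no depth, so no counting error is known.

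The 6 genes and the gene lists were chosen with earlier results of these data known. Named were the 6, genes of the ligand, receptor, binding protein, protease and adaptor lists, the 3 largest called per comparison of each other list, and the 3 most alike in pattern. Further genes (Cdkn1c, Cd81, Ifitm10, Airn, Mir675, Igf2bp1, Itgb4, Krt17, Dnmt3a, Phactr2, Dio3, Slc38a4, Cobl and markers at 0) were named after their values were seen. Results were recomputed with 0.1 as pseudocount, without a filter, with a 5 FPKM filter, after quantile normalization, after rescaling to means trimmed by 30% at both ends, with the replicate number as a block, with 1 prior variance for all genes, from only the 6 libraries compared, and without each library in turn.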

Additional observations from a re-analysis of the deposited data

Results flagged for a closer look

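For 12 genes of the receptor, binding protein, protease and adaptor lists the level differed between the 2 knockouts, by the test of guide 2 minus guide 1 in the model over 9 libraries (limma adjusted p between 1.85e-07 and 0.0155). Guide and clone cannot be told apart in these differences. By list, 2 of 2 tested receptor genes, 2 of 2 binding protein genes, 4 of 5 protease and inhibitor genes and 4 of 9 adaptor genes were called. For comparison, 54.5% of all genes differed between the guides. Among proteases and their inhibitors the difference was 1.59 log2 units for Stc2, 1.18 for Htra1, 0.36 for Adam12 and -0.36 for Ctsd. For adaptors and signalling genes it was 1.08 for Grb14, 0.42 for Shc1, 0.28 for Nedd4 and -0.50 for Gigyf1. The binding protein genes had 0.95 for Igfbp6 and 0.26 for Igfbp4, where the Igfbp4 call was lost without guide 2 replicate 2 (adjusted p = 0.0522) and without a filter (adjusted p = 0.0576). The receptor genes had 0.34 for M6pr and -0.36 for Igf1r.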

How the results depend on the processing

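None of the differences of the 6 genes changed direction under an alternative. Among the listed genes, no difference called in the main or the alternative fit changed direction. Differences called in neither fit were not followed for direction. With a pseudocount of 0.1 the difference from control was -8.50 for Igf2 with guide 2, -4.99 and -6.27 for H19 with guide 1 and guide 2, and 3.41 and 3.54 for Igfbp3. Between guide 2 and guide 1 it was then -7.32 for Igf2 and -1.28 for H19. These genes reach values under 1 FPKM, where the pseudocount sets the size. A filter of 5 FPKM left fewer genes to test, with 12 in place of 20 IGF axis genes called between guide 2 and guide 1, and 4 in place of 8 neighbours in each of the 3 comparisons. The other counts stayed within 1.5 times. Leaving out 1 library gave 18 to 23, 24 to 26 and 20 to 22 IGF axis genes called for guide 1, guide 2 and guide 2 against guide 1. Same-numbered libraries had correlations of their deviations between -0.11 and 0.24, and 9 of 18 best matches were to their own number. The 2 highest, 0.24 and 0.21, were between guide 2 and guide 1 for numbers 1 and 3. These values do not settle whether the numbers pair the libraries, and the main model used no block. With the replicate block 22, 26 and 21 IGF axis genes were called, against 24, 25 and 20, and 4764, 4559 and 3784 of all genes, against 4745, 4557 and 3793. Of 129 comparisons of single listed genes, 110 were called, of which 6 lost the call under some alternative, and 7 of the 19 others gained one.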

Other observations

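Markers of other lists differed in how they followed the guides. Of the 3 tested squamous markers, Jup, the plakoglobin gene, rose to 20.9 FPKM with guide 1 and 7.99 FPKM with guide 2, against 3.09 FPKM in the control (limma adjusted p = 4.5e-10 and 1.23e-07). Sfn, the stratifin gene, rose to 2.99 and 1.61 FPKM, against 1.03 FPKM. Itga6 rose with guide 1 to 9.49 FPKM, against 2.23 FPKM in the control, and had 2.34 FPKM in guide 2 (limma adjusted p = 0.554). Itgb4 was too low to be tested, and its knockout libraries all lay below the controls. Postn, the periostin gene of stroma, rose with guide 2 to 7.83 FPKM, against 1.30 FPKM in the control (limma adjusted p = 3.64e-07), and had 1.61 FPKM in guide 1 (limma adjusted p = 0.190). Cd68, a macrophage marker, rose to 1.35 FPKM with guide 1 and 2.16 FPKM with guide 2, against 0.652 FPKM in the control.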
